A study of Mus musculus with 42 samples.

Results

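Spleens taken 5 days after a single injection of CpG oligodeoxynucleotide (ODN) were compared with spleens taken 72 h after it. The comparison rests on 8 of the 42 arrays of the series, 4 titled for 5 days and 4 titled for 72 h. Both groups were female BALB/c mice that received 400 µg of an equimolar mixture of CpG ODN 1555 and 1466 into the peritoneal cavity, and the labels call the 4 replicates of each time independent biological replicates. The other arrays used for reference levels came from 6 untreated mice and from 4 mice at each of 3 h, 9 h, 24 h, 7 days, 9 days and 14 days. A further 4 mice received a control ODN and were taken at 3 h, and their arrays also enter the fit that sets the spread for every call. Every array set spleen RNA (Cy5) against 1 commercial universal mouse reference RNA (Cy3), a mixture from lymphocyte, macrophage, embryo, kidney, liver, mammary gland, muscle, skin and testis sources. Every level below is therefore a log2 ratio of spleen over that reference, and every difference is 5 days minus 72 h on the same log2 scale, where 1 unit is a 2-fold change. The members are all genes with at least 1 feature that carries a single symbol, 15271 genes in all. Of these, 14922 had a value on at least 3 arrays of each group and were tested.

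CpG ODN are short synthetic DNA strands whose unmethylated CG motifs imitate bacterial DNA. They are taken up into endosomes and bound there by Toll-like receptor 9 (TLR9), which in mice is carried by B cells, plasmacytoid and other dendritic cells and macrophages. Signalling through MyD88 gives interferon and interleukin-12, which in turn act on natural killer (NK) cells and induce interferon-stimulated genes in most cells of the organ. The mouse spleen also makes blood cells, and inflammation is known to raise the production of granulocytes and red cell precursors there.

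Genes of known tissue helped to read the direction of the ratios, so they are no separate check of the tissue label. In untreated spleens the B cell receptor gene Cd79a stood at 5.64 ± 0.55 and the MHC class II gene H2-Aa at 6.79 ± 0.12. The fibroblast product Fn1 stood at -3.80 ± 0.28 (SD, n = 6). Over the 8 arrays, 228 to 1512 features had no value, the SD of the log2 ratios ran from 0.983 to 1.197, and array medians lay between -0.010 and 0.004. The 72 h array 3 stood apart on the first principal component of the 8 arrays, which held 31.9% of the variance, and received an array weight of 0.329 against 0.552 to 4.365 for the other 7. Genes of pancreatic acinar cells, a neighbouring organ, differed between arrays of the same time: the mean over the 13 of them with a value on every array was 0.28, 1.39, 3.65 and 3.75 at 72 h and 0.33, 0.95, 5.47 and 0.37 at 5 days, and 0 of the 21 tested were called. The database numbers in the array labels place the 72 h arrays in 1 run of adjacent numbers and the 5 days arrays in 3 others, no run holds both times, and the treatment schedule is worded differently for each time. Time after injection and number run or schedule can therefore not be told apart. The 7 days arrays lie in the same number run as the 72 h arrays and carry the schedule of the 5 days arrays. Their levels are given beside some of the results, not all. In whole spleen, fewer cells of a type and less RNA per cell cannot be told apart.

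Genes of NK cell receptors and granzymes, interferon-stimulated genes and the complement gene Cfb were among those lower at 5 days than at 72 h. Histone genes, the red cell enzyme gene Pklr and the early granulocyte protease gene Elane were among those higher. Of the 14922 genes tested, 512 (3.43%) were called at a Benjamini-Hochberg adjusted p below 0.05 in limma, 2705 having an unadjusted p below 0.05. Of the called genes, 186 were higher at 5 days (1.25%) and 326 were lower (2.18%). The counts in each list below stand beside these shares, and 1 call in a list is not read as a result about that list. The median difference over all genes was -0.001, with 7443 genes above 0 and 7473 below. The values of the 2 groups did not overlap for 1408 of the 13939 genes with a value on all 8 arrays (10.1%). Among these 13939 genes, 375 were both called and without overlap, and called genes with a missing value are not in this count. Leaving out 1 array at a time left between 228 and 532 calls. Fewest were left without 5 days array 4 (228), 1 (255) or 2 (272) and without 72 h array 3 (269) or 1 (281), and 105 genes were called in the full fit and without each of the 8 arrays in turn. In a fit of the 8 arrays alone, which estimates the spread from these arrays only, 28 genes were called, 28 of them among the 512.

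**Figure D1:**
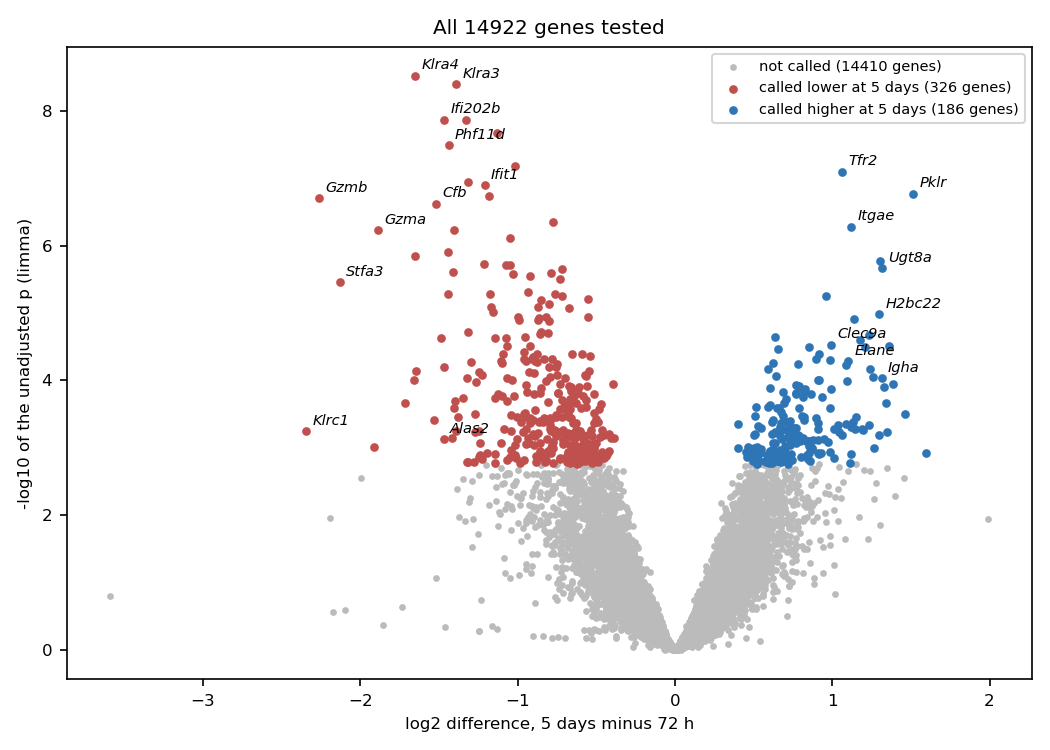
Each point is 1 of the 14922 genes tested, with the log2 difference (5 days minus 72 h) on the horizontal axis and -log10 of the unadjusted limma p on the vertical axis, red for the 326 genes called lower and blue for the 186 called higher. The genes with the smallest p among those called lower include Klra4, Klra3 and Ifi202b, and among those called higher Tfr2, Pklr and Itgae.

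Of 20 marker genes of NK and cytotoxic cells tested, 6 were lower at 5 days and 0 higher, with a median difference of -0.74 against -0.001 over all genes, and all 20 differences were below 0. The count of members called lower was 5 to 8 with 1 array left out, 3 in the fit of the 8 arrays alone, 11 with arrays scaled to equal spread and 15 with array weights. The mean over the 17 members with a value on every array was 2.94, 2.97, 2.55 and 2.38 on the 72 h arrays and 1.97, 1.92, 1.70 and 1.55 on the 5 days arrays. Every 72 h spleen was thus above every 5 days spleen. Untreated spleens stood at 2.07 ± 0.27 (n = 6) and 7 days spleens at 1.81 ± 0.11 (n = 4), so the 5 days level was near or below the untreated one.

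Gzmb encodes granzyme B, a serine protease that cytotoxic lymphocytes deliver into target cells. Its level was 4.79, 4.88, 5.13 and 4.68 at 72 h and 2.83, 3.26 and 1.74 at 5 days, where array 3 had no value and was dropped from the fit. The groups were separated by more than 1 unit, and the difference was -2.26 ± 0.35 (SE, limma adjusted p = 0.000227). Untreated spleens ranged from 1.70 to 3.01, and the 7 days mean was 1.51. Gzma, the gene of granzyme A, stood at 7.88, 7.71, 6.76 and 7.24 at 72 h and at 5.72, 5.93, 4.79 and 5.61 at 5 days. Its groups did not overlap either, with a difference of -1.88 ± 0.31 (limma adjusted p = 0.000496), and its 7 days mean was 5.62. Both granzyme calls were kept without any 1 of the 8 arrays. Over the time course the 2 genes differed in course: mean Gzmb was already 5.11 at 3 h, whereas mean Gzma was 6.29 at 3 h and 7.82 at 24 h.

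The Klra genes encode the Ly49 receptors, by which mouse NK cells read MHC class I on other cells. Of 13 Klra genes tested, a family picked by symbol after the values were seen, 9 were lower at 5 days and 0 higher, with a median of -1.04. The count was 5 without 5 days array 1 or 4 or 72 h array 1 or 2, and 3 in the fit of the 8 arrays alone. Klra3 stood at 2.48, 2.38, 2.26 and 1.60 at 72 h against 0.27, 0.76, 1.09 and 1.04 at 5 days. Its difference was -1.39 ± 0.18 (limma adjusted p = 3.03e-05), and its untreated and 7 days means were 1.02 and 1.11. Klra4 stood at -1.05, 0.42, -0.23 and -0.38 at 72 h and between -2.11 and -1.89 on all 4 of the 5 days arrays, a difference of -1.65 ± 0.21 (limma adjusted p = 3.03e-05). Its untreated mean of -0.91 lay between the levels at the 2 times. Klra22 moved from 0.97, 0.80, 0.15 and 0.77 to -0.49, -0.41, -0.63 and -1.08, by -1.33 ± 0.18 (limma adjusted p = 5.19e-05). Klra16 and Klra6 fell by 1.41 and 1.30. These calls were kept without any 1 array. The Klra genes lie in a cluster of near-identical copies, and mouse strains differ in which copies they carry, so a feature can report more than its named gene. Which of the copies named here BALB/c mice carry was not checked. The Klra counts are therefore counts of symbols, which need not be separate genes.

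Over all killer cell lectin-like receptor genes, the Klra genes included and picked by symbol after the values were seen, 12 of 24 were lower and 0 higher, with a median of -0.94. That count was 6 to 14 with 1 array left out, lowest without 5 days array 4, and 3 in the fit of the 8 arrays alone. Klre1, the gene of a receptor that pairs with other lectin-like chains, stood at 2.37, 2.43, 2.29 and 1.75 at 72 h and at 0.50, 1.21, 1.32 and 1.10 at 5 days (difference -1.18 ± 0.22, limma adjusted p = 0.00213). Klrc1 encodes NKG2A, an inhibitory receptor, and stood at 4.76, 4.31, 4.25 and 4.19 at 72 h and at 3.39, 3.79, 3.02 and -2.07 at 5 days. Its groups did not overlap, but 5 days array 4 lay more than 5 units below the other 3. The difference of -2.34 ± 0.62 (limma adjusted p = 0.03) became -0.97 without that array, with an adjusted p of 0.128. The Klrc1 call was also lost without 72 h array 1, 2 or 3 (limma adjusted p = 0.0815, 0.052 and 0.057). Markers that were not called include Ncr1 (-0.87), Klrd1 (-0.88), the perforin gene Prf1 (-0.56) and the transcription factor genes Tbx21 (-0.25) and Eomes (-0.09). The receptor for interleukin-18, a cytokine that drives interferon-gamma in NK cells, was read through Il18r1. It stood at 3.45, 3.17, 2.99 and 2.74 at 72 h and at 2.40, 1.70, 1.78 and 1.40 at 5 days, a difference of -1.27 ± 0.29 (limma adjusted p = 0.0125, and 0.0562 without 5 days array 4). The cytokine gene Il18 itself stood at 4.34, 4.17, 4.87 and 3.43 and then at 2.74, 3.20, 3.79 and 2.72, a difference of -1.09 ± 0.23 (limma adjusted p = 0.00777) between groups that overlapped. Ifng, the gene of interferon-gamma, was not called (difference 0.14, limma adjusted p = 0.792).

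**Figure D2:**
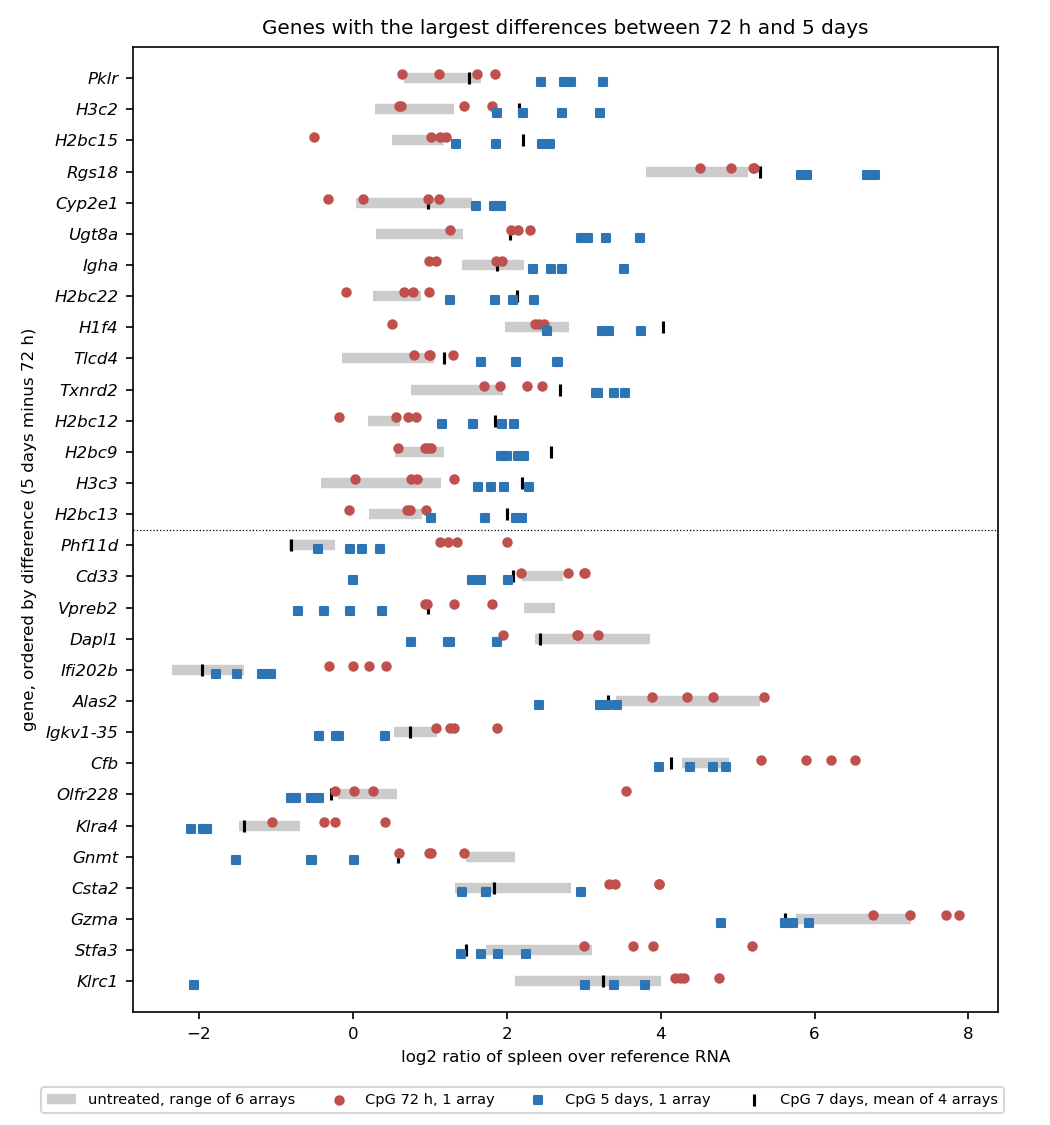
The 15 genes with the largest positive and the 15 with the largest negative difference among called genes whose arrays did not overlap are shown by their log2 ratio over the reference, with 1 red circle for each 72 h array, 1 blue square for each 5 days array, a grey bar for the range of the 6 untreated arrays and a black tick for the 7 days mean. For Gzma, Cfb and Stfa3 the 72 h arrays lay highest and the 5 days arrays near or below the untreated range, and for Klrc1 a single 5 days array lay at -2.07.

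Of 31 interferon-stimulated genes tested, 14 were lower at 5 days and 0 higher, with a median difference of -0.67, and 30 of the 31 differences were below 0. The mean over the 28 members with a value on every array was 1.98, 1.83, 1.93 and 1.56 at 72 h and 1.22, 1.22, 1.20 and 0.99 at 5 days, with no overlap. Both times stood above the untreated mean of 0.58 ± 0.12 (n = 6), and the 7 days mean was 0.80 ± 0.06 (n = 4). The count of members called lower was 8 to 16 with 1 array left out, lowest without 5 days array 4, 22 with array weights, 3 in the fit of the 8 arrays alone, and 2 without the 3 arrays that lacked over 1000 features.

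The control regions of these genes carry a recognisable element. The core of the interferon-stimulated response element is a repeat of GAAA. The letters GAAA, any 2 bases and GAAA again were searched on both strands of the RefSeq promoters (250 bases before to 50 after each start, build GRCm38.p6). Of the genes tested, 11866 had a promoter there. A gene can have more than 1 promoter, and the counts are of genes. A match was present in 3.81% of these genes and in 12.2% of the 238 called lower that had a promoter. Among interferon-stimulated genes with a promoter, it was present in 7 of 11 called lower (63.6%) and in 5 of 11 not called (45.5%). The 160 bases upstream of the start are shown for 3 interferon-stimulated genes that were called lower and for 2 guanylate-binding protein genes that were not, 5′ to 3′ on the strand of the gene, with the matches on either strand in capitals. Ifit1 lies at chr19:34640729-34640888 (plus strand), Ifit3 at chr19:34583369-34583528 (plus strand) and Trim30a at chr7:104465194-104465353 (minus strand). Gbp2b lies at chr3:142594687-142594846 (plus strand) and Gbp3 at chr3:142559884-142560043 (plus strand).
Ifit1: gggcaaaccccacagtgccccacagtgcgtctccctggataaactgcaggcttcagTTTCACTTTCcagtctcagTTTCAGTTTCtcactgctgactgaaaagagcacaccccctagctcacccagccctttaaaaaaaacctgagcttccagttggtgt
Ifit3: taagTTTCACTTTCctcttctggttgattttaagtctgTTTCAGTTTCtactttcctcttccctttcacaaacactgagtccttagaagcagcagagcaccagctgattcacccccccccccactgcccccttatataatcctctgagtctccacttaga
Trim30a: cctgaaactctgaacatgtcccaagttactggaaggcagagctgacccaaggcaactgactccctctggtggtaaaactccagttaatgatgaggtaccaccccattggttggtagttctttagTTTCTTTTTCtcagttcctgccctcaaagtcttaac
Gbp2b: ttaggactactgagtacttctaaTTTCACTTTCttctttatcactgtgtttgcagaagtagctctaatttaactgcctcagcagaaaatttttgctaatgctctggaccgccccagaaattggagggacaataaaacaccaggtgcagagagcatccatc
Gbp3: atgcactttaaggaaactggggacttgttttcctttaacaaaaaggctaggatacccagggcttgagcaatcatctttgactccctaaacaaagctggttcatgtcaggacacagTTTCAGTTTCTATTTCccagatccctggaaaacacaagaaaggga
In Ifit1 the 2 matches begin 104 and 85 bases before the start, in Ifit3 156 and 122 bases before it. In the Trim30a promoter shown the single match begins 36 bases before the start. Another Trim30a promoter in RefSeq, not shown, also holds 1 match. The letters are thus present in genes of both kinds, and a match describes the sequence only.

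Ifit1 encodes a protein that binds foreign RNA ends. It stood at 2.99, 2.94, 3.20 and 2.72 at 72 h and at 1.92, 1.94, 1.69 and 1.46 at 5 days, with every 72 h spleen above every 5 days spleen. The difference was -1.21 ± 0.19 (limma adjusted p = 0.000188), the untreated range was 0.31 to 0.88, and the 7 days mean was 1.45. Ifit1 was therefore above its untreated range at both times. Phf11d stood at 1.36, 1.14, 2.00 and 1.24 and then at -0.04, 0.12, 0.35 and -0.45, a difference of -1.44 ± 0.21 (limma adjusted p = 7.98e-05) with an untreated mean of -0.52. Trim30a, whose product restrains Toll-like receptor signalling, stood at 3.30, 3.18, 3.56 and 2.76 and then at 1.84, 2.34, 2.15 and 0.86, a difference of -1.40 ± 0.23 (limma adjusted p = 0.000496). Its untreated mean was 2.23, so that 3 of the 4 spleens at 5 days lay below the mean of untreated mice. Bst2, the gene of tetherin, which holds budding virus at the cell surface, stood at 1.04, 0.89, 1.17 and 0.99 and then at -0.01, 0.26, 0.17 and -0.07 (difference -0.94 ± 0.18, limma adjusted p = 0.00213). Oas2, the gene of an enzyme that senses double-stranded RNA, fell by 1.02 (limma adjusted p = 0.000139) and Mx2 by 0.99 (0.0034). The calls of Ifit1, Phf11d, Trim30a, Bst2, Oas2 and Mx2 were kept without any 1 array.

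Ifit3 stood at 2.79, 2.46, 1.58 and 2.27 at 72 h and at 1.46, 1.25, 0.94 and 0.18 at 5 days (difference -1.32 ± 0.30, limma adjusted p = 0.0116). That call was lost without 5 days array 4 (0.0692) or 72 h array 1 (0.0523). Ifi44l fell by 1.40 (limma adjusted p = 0.02), a call lost without 5 days array 4 (0.118) or 72 h array 3 (0.0942). Members not called include Isg15 (-0.83, limma adjusted p = 0.0709), Usp18 (-0.63, 0.193), whose product limits interferon receptor signalling, and Irf7 (-0.35). Rsad2 and Oas3 stood at differences of -0.14 and 0.01. Among the Ifi genes, picked by symbol after the values were seen, 6 of 10 were lower and 0 higher. Ifi202b, a p200 family gene induced by interferon, stood at 0.21, -0.31, 0.44 and 0.00 at 72 h and at -1.50, -1.18, -1.06 and -1.78 at 5 days, a difference of -1.47 ± 0.20 (limma adjusted p = 5.19e-05). Ifi204 fell by 1.16, Ifi27l2a by 1.13, Ifi203 by 0.79 and Ifi205 by 0.52. The Ifi205 call was lost without 5 days arrays 1 or 4 or 72 h arrays 1, 2 or 3 (limma adjusted p up to 0.155). Members of the p200 family are close copies, so their features may share signal.

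Guanylate-binding proteins and immunity-related GTPases, which attack the vacuoles of intracellular microbes and are induced mainly by interferon-gamma, were not called. Of 15 tested, 0 were called and 5 had an unadjusted p below 0.05 in limma. The count of members called lower was 0 to 3 with 1 array left out, 2 with array weights and 5 with arrays scaled to equal spread. The median difference was -0.25, -0.50 to -0.02 with 1 array left out (the latter without 5 days array 4), and 0.06 without the 3 arrays that lacked over 1000 features. The mean over the 13 members with a value on every array was 4.16, 3.75, 4.20 and 3.31 at 72 h and 3.62, 3.62, 3.85 and 2.98 at 5 days, and the groups overlapped. Both times stood well above the untreated mean of 1.86 ± 0.09 (n = 6), while the 7 days mean was 2.46 ± 0.17 (n = 4). Gbp2b stood at 5.68, 4.99, 6.48 and 4.66 and then at 5.42, 5.25, 5.67 and 4.03 (difference -0.36, limma adjusted p = 0.564), against an untreated mean of 2.08. Iigp1 differed by -0.63 (limma adjusted p = 0.203). All 9 genes of this list with a promoter in RefSeq hold a match to the same repeat of GAAA. Whether this list and the interferon-stimulated genes differ in their change was not tested.

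**Figure D3:**
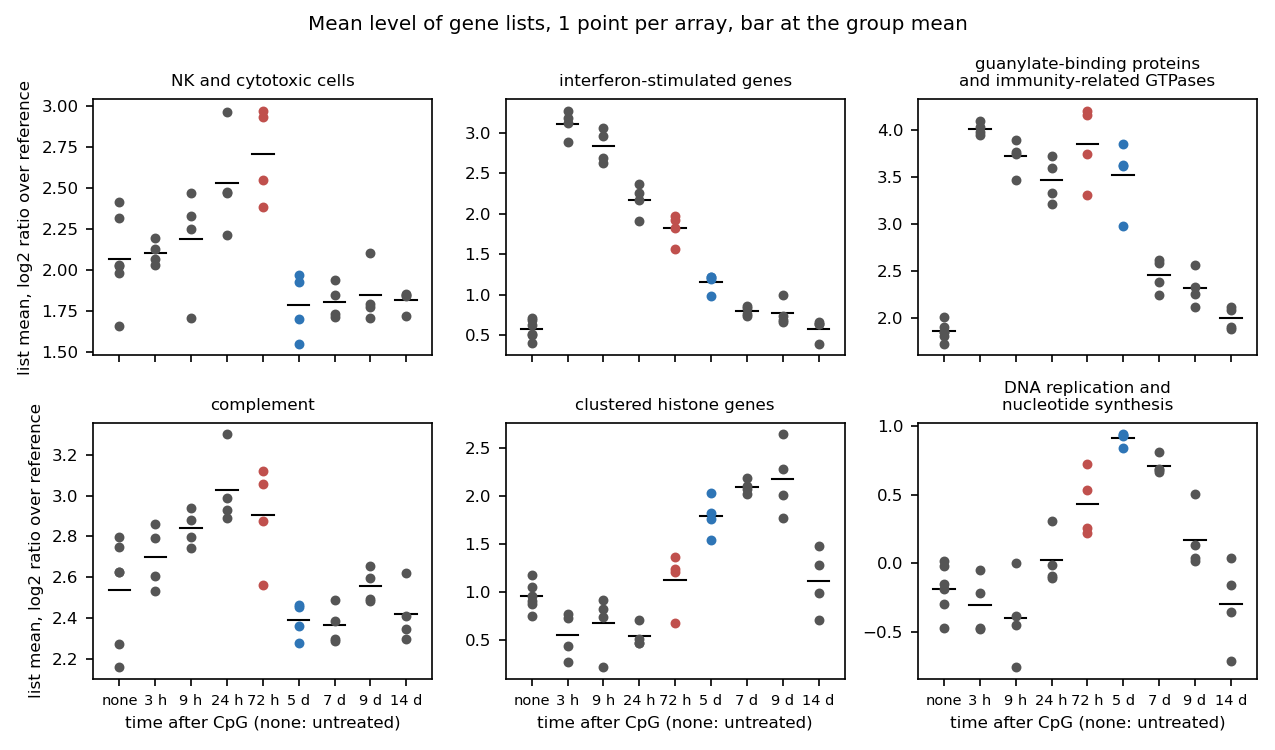
Each point is the mean log2 ratio of 1 gene list on 1 array, ordered by time after injection with evenly spaced times and with untreated spleens at the left, and the bar is the group mean, with 72 h in red and 5 days in blue. The NK list and the interferon-stimulated list separate 72 h from 5 days, the guanylate-binding list overlaps between them, and the histone points at 5 days and 7 days lie above those at 72 h.

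Cfb encodes complement factor B, the protease subunit of the alternative pathway convertase. It stood at 6.53, 6.22, 5.89 and 5.30 at 72 h and at 4.68, 4.85, 4.38 and 3.97 at 5 days, with no overlap and a difference of -1.52 ± 0.24 (limma adjusted p = 0.000256). Its untreated range was 4.27 to 4.89, so the 5 days spleens lay within or below it. Of 14 complement genes, 2 were lower and 0 higher, with a median of -0.53, and 0 were called in the fit of the 8 arrays alone and 8 with array weights. The second is C2, the classical pathway counterpart of Cfb and its neighbour in the genome, which fell by 0.83 (limma adjusted p = 0.0243). The C2 call was lost without 5 days arrays 1, 2 or 4 or 72 h arrays 2 or 3 (limma adjusted p up to 0.111).

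The stefins are small inhibitors of cysteine proteases that mouse neutrophils and their precursors express. Stfa3 stood at 3.90, 3.64, 5.18 and 3.00 at 72 h and at 1.40, 1.88, 2.25 and 1.67 at 5 days, a difference of -2.13 ± 0.39 (limma adjusted p = 0.00157) against an untreated mean of 2.31. Csta2 stood at 3.98, 3.32, 3.98 and 3.41 and then at 1.73, 2.96, 1.72 and 1.42 (difference -1.72 ± 0.42, limma adjusted p = 0.0182). Stfa2l1 fell by 1.91 (limma adjusted p = 0.0385) between groups that overlapped. Of 4 stefin genes tested, a family picked by symbol after the values were seen, 3 were lower. The stefins are near-identical copies and their features may share signal. The Csta2 call was lost without 5 days arrays 1 or 4 or 72 h arrays 1 or 3 (up to 0.0718), and the Stfa2l1 call without 5 days arrays 3 or 4 or 72 h arrays 1, 2 or 3 (up to 0.224), in the same limma fit.

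Of 20 genes of secondary and tertiary granules and mature neutrophils, 4 were lower and 0 higher with a median of -0.16 (0.01 without 5 days array 1 and -0.30 without 72 h array 4). In the fit of the 8 arrays alone 0 were called. The 4 are Stfa3, Stfa2l1, the oxidase subunit gene Cybb (-1.24) and the leukotriene B4 receptor gene Ltb4r1 (-0.92). Cybb rested on 5 days array 2, at 1.33 against 3.45, 4.32 and 3.21 on the other 3, and its limma adjusted p was 0.218 without it. The Cybb call was also lost without 5 days array 4 or 72 h arrays 2, 3 or 4 (up to 0.114), and the Ltb4r1 call without 5 days arrays 2 or 4 or 72 h arrays 1 or 4 (up to 0.109). The other 16 members were not called and lay on both sides of 0, with Ltf at 0.86, Ngp at 0.94, Camp at 0.33 and S100a8 at 0.11, and Lcn2 at -0.04, Mmp8 at -0.19, Mmp9 at -0.15, S100a9 at -0.23 and Retnlg at -1.37. Of 7 genes of primary granules, which are filled at the promyelocyte stage, 2 were higher and 0 lower, with a median of 0.82. The median was 0.36 without 72 h array 4 and 0.28 with array weights, 0 were called in the fit of the 8 arrays alone, and 2 were called lower with arrays scaled to equal spread and with array weights. Elane, the gene of neutrophil elastase, stood at 1.80, 2.43, 1.99 and 1.43 at 72 h and at 2.69, 3.00, 3.07 and 3.30 at 5 days, a difference of 1.10 ± 0.24 (limma adjusted p = 0.00835), kept without any 1 array. Its untreated mean was 0.90 and its 7 days mean 2.96. Prtn3, the gene of proteinase 3, was higher by 1.11 (limma adjusted p = 0.0489), a call lost without any 1 of 7 arrays, all but 5 days array 3 (up to 0.166). Mpo, Ctsg and Ms4a3 were not called, at 0.58, 0.82 and 1.35, nor were Ctsc and Srgn, at -0.68 and -0.43.

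Monocyte and macrophage lists gave few calls. Of 15 monocyte genes, 2 were lower and 0 higher, with a median of -0.28. The median was -0.14 without 72 h array 2 and -0.64 with arrays scaled to equal spread, and 0 were called in the fit of the 8 arrays alone. Ly6c1, which encodes a surface protein of monocytes and other cells, fell by 1.17 (limma adjusted p = 0.0028), and the lysozyme gene Lyz2 fell by 0.70 (0.0198), a call lost without 5 days arrays 1 or 2 or 72 h array 2 (up to 0.0699). Ms4a6d stood at -0.66 and was not called. Of 23 genes of splenic resident macrophages, 3 were lower and 0 higher, with a median of -0.67 and 21 differences below 0. An unadjusted p below 0.05 in limma was found for 14 of them. The mean over the 20 members with a value on every array ran from 2.59 to 3.29 at 72 h and from 2.38 to 2.55 at 5 days, with no overlap. The count of members called lower was 1 without 72 h array 3, 7 without 72 h array 4, 12 with array weights and 0 in the fit of the 8 arrays alone. Hmox1, the gene of haem oxygenase 1, which opens the haem ring when old red cells are broken down, stood at 2.47, 2.59, 2.67 and 2.01 at 72 h and at 1.65, 1.59, 1.36 and 1.50 at 5 days (difference -0.91 ± 0.20, limma adjusted p = 0.00831). Spic, the transcription factor gene of red pulp macrophages, fell by 0.90 (limma adjusted p = 0.0308, lost without 5 days arrays 1 or 4 or 72 h arrays 1, 2 or 3, up to 0.135). Msr1, a scavenger receptor gene, fell by 0.75 (limma adjusted p = 0.00882, and 0.0509 without 72 h array 3). The iron exporter gene Slc40a1 was not called at -0.73 (limma adjusted p = 0.0703), nor was Cd5l, at -1.28 (0.13).

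Of 24 chemokine genes, 1 was lower (4.17%, against 2.18% of all genes) and 0 higher. Their median was -0.28 (-0.43 without 5 days array 3, -0.15 without 5 days array 1). Without 5 days array 1 or 72 h array 4, 3 were lower. Ccl24, an attractant of eosinophils, stood at 1.59, 1.38, 1.59 and 1.10 at 72 h and at 0.50, 0.36, 0.23 and 0.46 at 5 days (difference -1.03 ± 0.19, limma adjusted p = 0.00129), kept without any 1 array. The interferon-induced attractants Cxcl9 and Cxcl10 stood at -0.73 and -0.76 and were not called (limma adjusted p = 0.324 and 0.193). Of 22 cytokine genes, 2 were lower and 0 higher, with a median of -0.15 (-0.08 without 5 days array 3). Besides Il18, the other was Il23a, a subunit of interleukin-23, at -0.67 (limma adjusted p = 0.0165, lost without 5 days arrays 1 or 2 or 72 h array 3, up to 0.0854). Il10 stood at -0.46 and was not called. The receptor gene Tlr9 stood at 0.76, 0.52, 0.06 and 0.42 at 72 h and at 1.16, 0.62, 0.49 and 0.70 at 5 days. The groups overlapped and Tlr9 was not called (difference 0.31, limma adjusted p = 0.481).

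Dendritic cell genes gave calls in both directions. Of 17 genes of conventional dendritic cells, 2 were higher and 1 lower, with a median of 0.14 (0.08 without 72 h array 4, 0.23 without 5 days array 2). Itgae encodes the CD103 integrin chain, carried by type 1 conventional dendritic cells and by some T cells. It stood at 1.15, 0.89, 0.74 and 1.28 at 72 h and at 2.20, 2.22, 2.22 and 1.90 at 5 days, a difference of 1.12 ± 0.19 (limma adjusted p = 0.000488). Its untreated mean was 1.14 and its 7 days mean 2.41. Clec9a, the gene of a receptor by which type 1 dendritic cells bind dead cells, stood at 0.60, 0.92, 1.16 and 0.98 and then at 1.92, 1.82, 2.04 and 1.83 (difference 0.99 ± 0.21, limma adjusted p = 0.00657). Both groups were tight and apart for these 2 genes, and both calls were kept without any 1 array and in the fit of the 8 arrays alone. Other genes of the same cell type, Xcr1 (0.38), Batf3 (0.12) and Tlr3 (-0.36), were not called. Clec10a, a lectin gene of type 2 cells, fell by 0.98 (limma adjusted p = 0.049, and 0.246 without 5 days array 1, also lost without 5 days arrays 3 or 4 or 72 h arrays 1, 3 or 4). Of 14 plasmacytoid dendritic cell genes, 2 were lower, Bst2 and Lag3, and 0 higher, with a median of -0.57. Lag3 fell by 1.01 (limma adjusted p = 0.0457), a call lost without 5 days arrays 1, 2 or 4 or 72 h arrays 1, 2 or 3 (up to 0.17). Siglech, which marks the cells, stood at -0.26, and Bst2 is also interferon-induced.

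Genes of antibody production gave few calls. Of 16 plasma cell genes, 1 was higher and 3 lower, with a median of -0.42. Igha, the constant region gene of IgA, stood at 1.94, 0.99, 1.08 and 1.86 at 72 h and at 3.52, 2.34, 2.57 and 2.71 at 5 days (difference 1.31 ± 0.30, limma adjusted p = 0.0116, and 0.0615 without 5 days array 1). Its untreated mean was 1.73 and its 7 days mean 1.87. Ighg1 stood at 1.75, 3.64, 0.78 and -1.19 at 72 h and at 3.43, 2.48, 4.03 and 3.01 at 5 days. The 72 h spleens were widely spread, and the difference of 1.99 ± 0.75 was not called (limma adjusted p = 0.13). The lower genes were Tnfrsf17 (-0.76), the receptor gene for a plasma cell survival factor, Txndc5 (-0.82) and Mzb1 (-0.88), which help to fold antibody. Their limma adjusted p were 0.03, 0.0455 and 0.0488, and without 72 h array 1 they were 0.131, 0.184 and 0.0624. All 3 calls were also lost without 72 h array 2 and without 5 days array 4 (up to 0.145 and 0.141), and the Mzb1 call without any array but 5 days array 3 (up to 0.206). Tnfrsf17 was also lost without 5 days array 3 (0.0637) and Txndc5 without 5 days arrays 1, 2 or 3 (up to 0.0987). Jchain stood at -0.37 and was not called.

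Immunoglobulin kappa variable genes encode the variable part of the light chain. Of 119 of them, picked by symbol after the values were seen, 22 were lower and 0 higher, with a median of -0.75 and 79 unadjusted p below 0.05 in limma. The mean over the 115 members with a value on every array was 3.14, 3.35, 3.20 and 2.36 at 72 h and 1.89, 2.14, 2.66 and 2.53 at 5 days. The 72 h array 4 fell among the 5 days arrays. The count of members called lower was 3 without 5 days array 1 or 72 h array 3, 51 without 72 h array 4, 95 with array weights and 1 in the fit of the 8 arrays alone, so it depends on single arrays. These genes are near-identical in places and their features may share signal. The largest called difference was that of Igkv1-35, which stood at 1.87, 1.31, 1.26 and 1.08 and then at -0.22, -0.44, 0.42 and -0.18 (difference -1.49 ± 0.31, limma adjusted p = 0.00545), a call kept without any 1 array. Mature B cell markers gave 0 calls of 18 in limma, with 4 unadjusted p below 0.05 and a median of -0.27 (-0.16 without 72 h array 1), and Cd79a stood at -0.65. Of 7 genes of B cell precursors, 1 was lower and 0 higher, with a median of 0.04 (-0.11 without 72 h array 3) and 4 differences above 0. That gene is Vpreb2, part of the surrogate light chain of the pre-B cell receptor, at 1.31, 0.97, 0.94 and 1.80 at 72 h and -0.04, -0.38, 0.37 and -0.72 at 5 days (difference -1.44 ± 0.27, limma adjusted p = 0.00213). Its untreated mean was 2.40 and its 7 days mean 0.97. Vpreb1 (-0.38, limma adjusted p = 0.147), Vpreb3 (0.16) and Dntt (0.31) were not called.

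T cell genes gave 1 higher and 1 lower of 20 (5.0% each, against 1.25% and 2.18% of all genes), with a median of -0.23. Cd3g, a chain of the T cell receptor complex, fell by 0.75 (limma adjusted p = 0.0239), and Cd5, an inhibitory surface receptor, was higher by 0.67 (0.0287). Cd3e stood at -0.29 and was not called. The Cd3g call was lost without 5 days arrays 2 or 4 or 72 h arrays 1 or 3 (up to 0.0754) and the Cd5 call without 5 days arrays 3 or 4 or 72 h arrays 1 or 4 (up to 0.116), in the same limma fit.

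Histone genes gave calls in 1 direction, higher at 5 days. Replication-dependent histones lie in clusters and are transcribed in S phase, when new DNA must be packed. Of 52 clustered histone genes, a family picked by symbol after the values were seen, 13 were higher and 0 lower, with a median difference of 0.65, and 48 differences were above 0. Of these genes, 34 had an unadjusted p below 0.05 in limma. The mean over the 47 members with a value on every array was 1.24, 1.37, 0.68 and 1.21 at 72 h and 1.82, 1.77, 1.54 and 2.03 at 5 days, with no overlap, against 0.96 ± 0.15 (n = 6) in untreated spleens and 2.10 ± 0.07 (n = 4) at 7 days. The 72 h array 3, which stood apart over all genes, was the lowest. The count was 5 without 5 days array 2 or 4 or 72 h array 3, at most 18 with any other array left out, 25 with array weights, and 1 in the fit of the 8 arrays alone and 1 without the 3 arrays that lacked over 1000 features. Of the shorter list of 10 histones, 2 were higher, H1f1 (1.06, limma adjusted p = 0.0308) and H1f5 (0.93, 0.043), and 0 lower. The H1f1 call was lost without 5 days arrays 2 or 3 or 72 h arrays 1, 3 or 4 (up to 0.0898), and the H1f5 call without 5 days arrays 1 or 2 or 72 h arrays 1, 2 or 3 (up to 0.207). The RNA was primed with oligo(dT), while mature messages of these histones mostly end in a stem-loop without a poly(A) tail, so these levels may cover only part of their RNA. Copies within a cluster are near-identical and may share signal.

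Many histone promoters carry CCAAT boxes, which are bound by the factor NF-Y. The letters CCAAT were present on either strand in 42.6% of the 11866 genes tested that had a promoter. They were present in 41 of 48 such histone genes (85.4%) and in 13 of 13 of the histones called higher. The 160 bases upstream of the start are shown for the 3 called histone genes with the largest differences, with CCAAT matches on either strand in capitals, from RefSeq build GRCm38.p6. They are H2bc22 at chr13:21787328-21787487 (plus strand), H3c2 at chr13:23752185-23752344 (plus strand) and H2bc15 at chr13:21753916-21754075 (plus strand).
H2bc22: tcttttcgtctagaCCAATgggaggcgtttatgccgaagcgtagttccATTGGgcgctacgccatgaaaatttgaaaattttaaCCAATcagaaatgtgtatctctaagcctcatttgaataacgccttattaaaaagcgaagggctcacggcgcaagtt
H3c2: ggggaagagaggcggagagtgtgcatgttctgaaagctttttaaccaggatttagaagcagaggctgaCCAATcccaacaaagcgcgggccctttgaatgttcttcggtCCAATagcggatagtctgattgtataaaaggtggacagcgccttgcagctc
H2bc15: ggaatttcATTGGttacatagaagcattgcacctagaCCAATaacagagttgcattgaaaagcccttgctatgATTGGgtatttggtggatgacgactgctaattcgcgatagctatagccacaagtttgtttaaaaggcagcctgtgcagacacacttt
H2bc22 and H2bc15 hold 3 matches each in this window and H3c2 holds 2.

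H2bc22, which encodes a histone H2B, stood at 0.78, 0.99, -0.09 and 0.67 at 72 h and at 2.08, 1.84, 1.26 and 2.35 at 5 days. Every 5 days spleen was above every 72 h spleen, and the difference was 1.30 ± 0.26 (limma adjusted p = 0.00328), kept without any 1 array. Its untreated mean was 0.53, and its mean was 2.13 at 7 days, 2.88 at 9 days and 0.99 at 14 days. H3c2, an H3 gene, stood at 1.44, 1.80, 0.60 and 0.62 and then at 2.72, 2.21, 1.87 and 3.21 (difference 1.39 ± 0.32, limma adjusted p = 0.0129), a call lost without 5 days array 4 (0.0695) or 72 h array 3 (0.0547). H2bc15 stood at 1.21, 1.01, -0.51 and 1.13 and then at 2.57, 1.86, 1.34 and 2.46 (difference 1.35 ± 0.36, limma adjusted p = 0.03). Without 72 h array 3 the H2bc15 difference was 0.94 with a limma adjusted p of 0.155, and the call was also lost without 5 days arrays 1, 2 or 4 (up to 0.102). The calls of H2bc12 (1.21, limma adjusted p = 0.00669) and H2bc13 (1.18, 0.00557) were kept without any 1 array. The calls of H1f4 (1.27, limma adjusted p = 0.0393), H2bc9 (1.20, 0.0299), H3c3 (1.19, 0.0298) and H2bc7 (1.15, 0.0239) were lost without 72 h array 3, where the limma adjusted p was 0.209, 0.0835, 0.115 and 0.123, and without 5 days array 1, 2 or 4. H2bc9 was also lost without 5 days array 3 or 72 h array 1, and H3c3 without 72 h array 1 or 2 (up to 0.0542 and 0.0532). H3c4 rose by 0.78 (limma adjusted p = 0.00871, and 0.0617 without 5 days array 4), and H2ac10 by 0.65 (0.02, and 0.0887 without 72 h array 1, also lost without 5 days arrays 1, 2 or 4).

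Of 34 genes of DNA replication and nucleotide synthesis, 2 were higher and 0 lower, with a median of 0.44, 33 differences above 0 and 15 unadjusted p below 0.05 in limma. The list mean was 0.26, 0.54, 0.73 and 0.22 at 72 h and 0.84, 0.94, 0.93 and 0.94 at 5 days, with no overlap, against -0.19 ± 0.18 (n = 6) in untreated spleens. At 7 days the list mean ran from 0.67 to 0.81, which overlapped the 72 h arrays. Chaf1b, a subunit of the factor that loads histones onto new DNA, stood at -0.20, 0.09, 0.38 and -0.04 and then at 1.16, 1.08, 0.76 and 0.82 (difference 0.90 ± 0.20, limma adjusted p = 0.00831), kept without any 1 array. Rrm2, the regulated subunit of ribonucleotide reductase, was higher by 0.67 (limma adjusted p = 0.0298, lost without 5 days arrays 1, 2 or 4 or 72 h array 3, up to 0.151). Mcm5 stood at 0.62 and was not called (limma adjusted p = 0.171). Of 32 mitotic genes, 1 was higher (3.12%, against 1.25% of all genes) and 0 lower, with a median of 0.40 and 30 differences above 0. That gene is Foxm1, the gene of a transcription factor of late cell cycle genes, at 0.68 (limma adjusted p = 0.0459), a call lost without any 1 of 7 arrays, all but 5 days array 3 (up to 0.14). Top2a stood at 0.61 and Mki67 at 0.14, both not called.

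**Figure D4:**
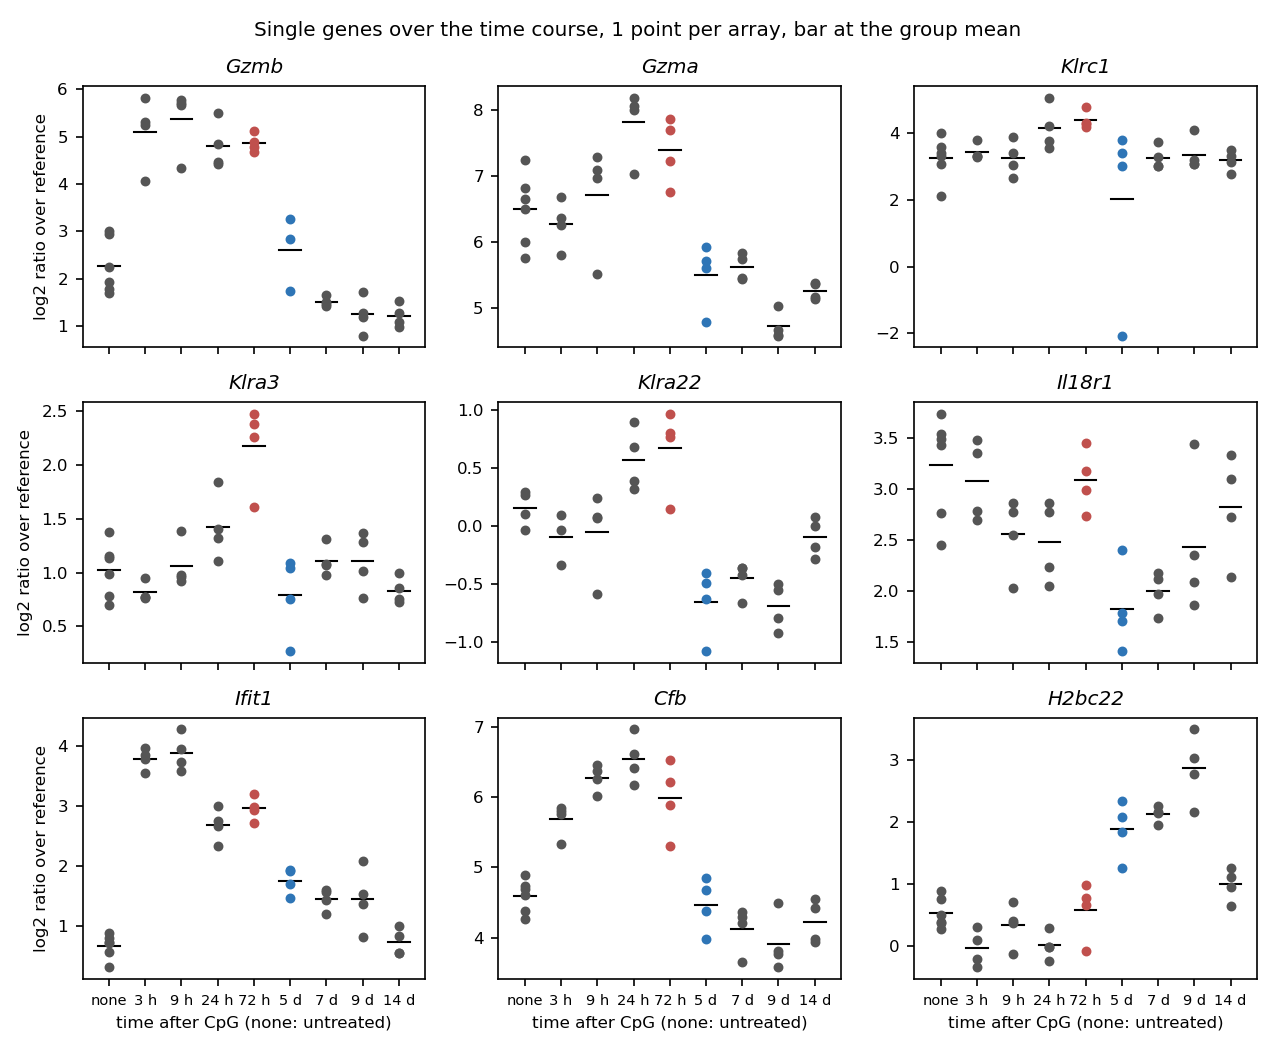
Each point is the log2 ratio of 1 gene on 1 array, with times after injection evenly spaced in order, untreated spleens at the left, 72 h in red, 5 days in blue and a bar at each group mean. Gzmb, Klra3, Ifit1 and Cfb step down from 72 h to 5 days, and the H2bc22 points move up, and it has its highest mean at 9 days.

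Of 31 erythroid genes tested, 2 were higher (6.45%, against 1.25% of all genes) and 1 lower (3.23%, against 2.18%). Their median of 0.12 became -0.33 with arrays scaled to equal spread, -0.04 without 72 h array 4 and 0.28 without 5 days array 1. Pklr, the gene of the pyruvate kinase of liver and red cells, stood at 1.84, 1.62, 0.64 and 1.12 at 72 h and at 3.25, 2.74, 2.44 and 2.84 at 5 days. It had the largest positive difference of the leading genes, 1.51 ± 0.24 (limma adjusted p = 0.000227), against an untreated mean of 1.13 and a 7 days mean of 1.502. Tfr2, a transferrin receptor gene of red cell precursors and liver, was singled out after its values were seen, since it had the smallest p among the genes called higher. It stood at 1.16, 1.18, 0.78 and 0.79 at 72 h and at 2.04, 2.01, 2.05 and 2.05 at 5 days, a difference of 1.06 ± 0.16 (limma adjusted p = 0.00015) against untreated and 7 days means of 0.38 and 0.90. Pklr and Tfr2 lie outside the list of 31, as do Erfe (1.24, limma adjusted p = 0.00984) and Zfpm1 (1.09, 0.00892), also called higher. Zfpm1, like Tfr2, was chosen after its values were seen. These genes were named because of their values, so they do not describe erythroid genes as a set. The calls of Pklr, Tfr2, Erfe and Zfpm1 were kept without any 1 array. Pklr and Tfr2 at 7 days, in the number run of the 72 h arrays, stood near their 72 h levels rather than their 5 days levels.

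Add2, the gene of a membrane skeleton protein, and Xk, a blood group gene, were higher by 1.12 and 1.09 (limma adjusted p = 0.0285 and 0.0269). The Add2 call was lost without 5 days arrays 1, 2 or 4 or 72 h array 3 (up to 0.0984), and the Xk call without 5 days arrays 2 or 4 or 72 h array 3 (up to 0.122), in the same limma fit. Alas2, the gene of the first enzyme of haem synthesis in red cells, went the other way, at 4.68, 5.34, 4.34 and 3.88 at 72 h and 3.30, 2.42, 3.43 and 3.21 at 5 days (difference -1.47 ± 0.40, limma adjusted p = 0.0332). The groups did not overlap, but the call was lost without 5 days arrays 1, 2 or 4 or 72 h arrays 1, 2 or 3 (up to 0.121). Of 11 haem synthesis genes Alas2 was the only one called, and the median of that list was 0.42, but 0.21 without 72 h array 3, 0.14 with arrays scaled to equal spread and 0.18 with array weights. The transferrin receptor gene Tfrc (0.70) and the globin gene Hbb-b1 (-0.22) were not called, nor were Gata1 (0.00) and Klf1 (0.12). Of 18 iron genes 1 was lower, Hmox1, and 0 higher. Of 18 megakaryocyte and platelet genes 1 was higher and 0 lower, with a median of 0.30 (0.12 without 5 days array 4). It is Rgs18, a regulator of G protein signalling in platelets and their precursors, which stood at 5.20, 5.21, 4.51 and 4.92 at 72 h and at 5.90, 6.67, 5.82 and 6.79 at 5 days (difference 1.34 ± 0.33, limma adjusted p = 0.0182). That call was lost without 5 days arrays 2 or 4 or 72 h array 3 (up to 0.0773). Pf4 stood at 0.29 and was not called.

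Several of the genes with the largest differences belong to none of these groups. Ugt8a, an enzyme gene of galactolipid synthesis, stood at 2.06, 2.15, 2.30 and 1.27 at 72 h and at 3.06, 3.73, 3.29 and 2.96 at 5 days (difference 1.31 ± 0.24, limma adjusted p = 0.00123). Cyp2e1, a cytochrome P450 gene, was higher by 1.33 (limma adjusted p = 0.0135, and 0.071 without 72 h array 3). Tlcd4 was higher by 1.26 (limma adjusted p = 0.0116, and 0.0505 without 5 days array 4), and Txnrd2, the mitochondrial thioredoxin reductase gene, by 1.24 (0.0273, lost without 5 days arrays 2 or 4 or 72 h arrays 1 or 4, up to 0.0812). Gnmt, the gene of glycine N-methyltransferase, stood at 0.99, 0.59, 1.01 and 1.44 and then at 0.02, -1.52, -0.54 and -0.53 (difference -1.65 ± 0.29, limma adjusted p = 0.00102), against an untreated mean of 1.77. Cd33, a sialic acid-binding receptor gene of myeloid cells, fell by 1.44 (limma adjusted p = 0.000929), and Dapl1 by 1.46 (0.00932). The calls of Ugt8a, Gnmt, Cd33 and Dapl1 were kept without any 1 array. Olfr228, an odorant receptor gene, differed by -1.53 (limma adjusted p = 0.0252) through 72 h array 2, at 3.55 against -0.24, 0.02 and 0.26 on the other 3. Without it the Olfr228 difference was -0.65 with a limma adjusted p of 0.0586, and the call was also lost without 5 days arrays 1 or 2 (up to 0.0615).

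The remaining lists gave 0 to 4 calls each, beside 1.25% higher and 2.18% lower over all genes. The share higher was 2.86% of cytosolic ribosomal proteins and 3.7% of oxidative phosphorylation subunits. Of 30 extracellular matrix genes, 1 was higher, the collagen gene Col5a1 (0.85), and 3 were lower, Nid1 (-0.90), the collagenase gene Mmp13 (-0.79) and Sparc (-0.63), with a median of -0.22. Of these the Nid1 call (limma adjusted p = 0.0106) was kept without any 1 array, while Col5a1, Mmp13 and Sparc (0.0342, 0.03 and 0.0478) were each lost without any 1 of 6 or 7 arrays, up to 0.105, 0.0909 and 0.178. Of 15 MHC class I genes, 1 was lower, H2-T23 (-0.60, limma adjusted p = 0.0488, lost without 6 of the arrays in turn, 5 days 1, 2 or 3 and 72 h 1, 2 or 3, up to 0.164). Of 10 MHC class II genes 1 was lower, the cathepsin gene Ctss (-0.70, limma adjusted p = 0.019, and 0.0726 and 0.0736 without 5 days array 4 and 72 h array 3). Of 12 genes of eosinophils, basophils and mast cells 1 was lower, the mast cell protease gene Mcpt4 (-0.95, limma adjusted p = 0.0368, lost without 5 days arrays 1, 2 or 4 or 72 h arrays 1, 2 or 3, up to 0.124). Of 10 adipocyte genes 1 was lower, the lipase gene Lpl (-0.78, limma adjusted p = 0.00831). Of 17 immediate early genes 1 was higher, Junb (0.97, limma adjusted p = 0.0347, lost without 5 days arrays 1 or 4 or 72 h array 3, up to 0.154). Single members were higher among 35 cytosolic ribosomal proteins, Rplp0 (0.48, limma adjusted p = 0.0427, lost without any 1 array, up to 0.108), and among 27 oxidative phosphorylation subunits, Ndufv1 (0.62, 0.0307, lost without 6 arrays in turn, all but 5 days array 3 and 72 h array 2, up to 0.108).

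In limma 0 genes were called among 7 germinal centre, 15 stem and progenitor, 20 endothelial, 22 stromal, 13 glycolysis, 13 cholesterol synthesis, 21 endoplasmic reticulum folding, 12 glucocorticoid-induced and 11 granulopoiesis genes. Unadjusted p below 0.05 numbered 1, 4, 1, 2, 1, 0, 5, 1 and 2 in that order. The endothelial median of 0.12 became -0.02 with arrays scaled to equal spread.

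At 7 days, in the number run of the 72 h arrays, 553 of 15086 genes were called against 72 h (3.67%), 163 of them higher (1.08%) and 390 lower (2.59%). That comparison shares the 72 h arrays with the one above, so the counts are set side by side only. Of the 20 NK genes 11 were lower at 7 days, of the 31 interferon-stimulated genes 19, of the 15 guanylate-binding and GTPase genes 12, and of the 13 Klra genes 9. Of the 52 clustered histones 28 were higher at 7 days. Other lists had fewer calls at 7 days than at 5 days. Of the 119 immunoglobulin kappa variable genes 1 was lower at 7 days, and of the 34 DNA replication genes 0 were higher.

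**Figure D5:**
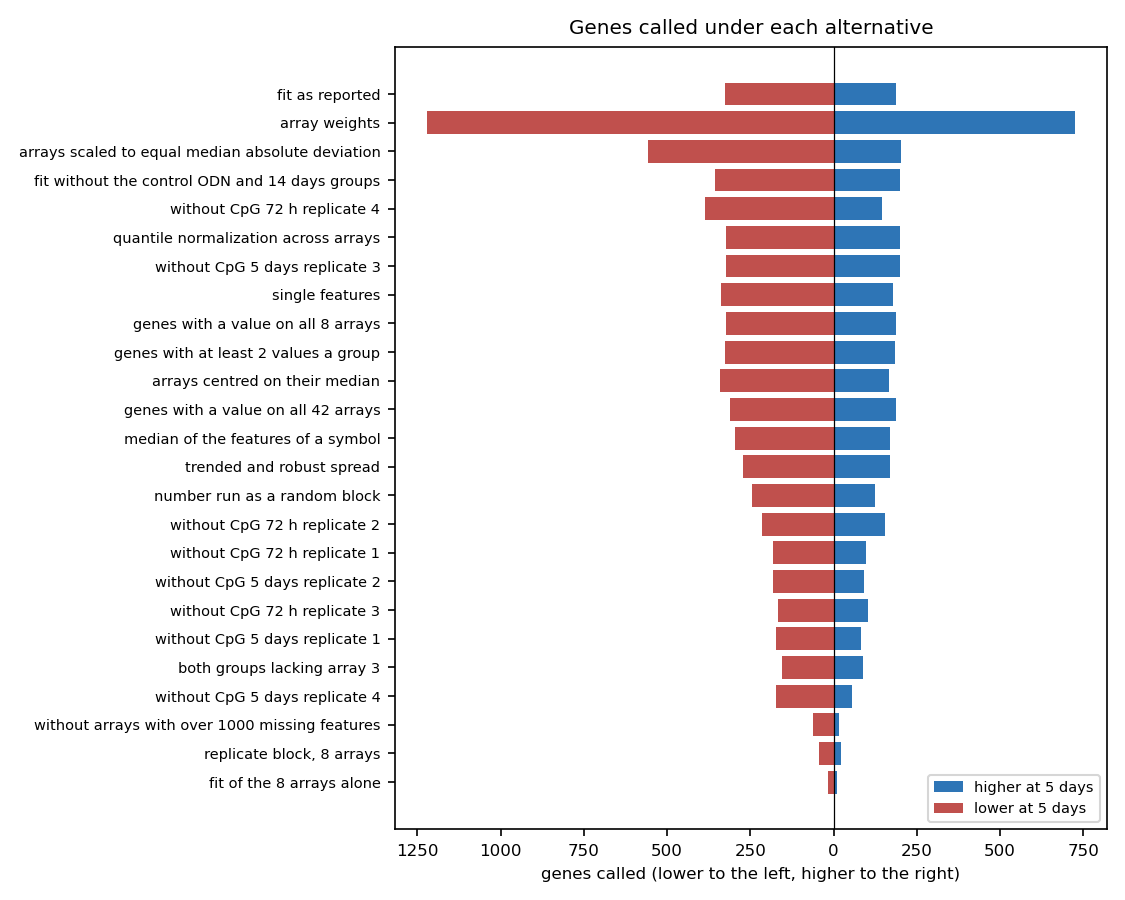
Bars give the number of genes called higher (blue, to the right) and lower (red, to the left) at 5 days under each way of processing or fitting, with the fit as reported on top. More genes were called lower than higher under every setting shown, from 1944 calls with array weights to 28 in the fit of the 8 arrays alone.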

How the data were processed

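Spleen RNA of 42 mice in 10 groups was read on spotted 2-colour arrays against a common reference RNA, and the 4 arrays of 5 days and the 4 of 72 h were compared. The deposited values are log2 ratios, 1 per feature and array, already normalized by the authors by a method not given in the sources used here; the log2 scale and the direction (spleen over reference) were read from the labels' dyes and from genes whose tissue is known. Array medians near 0 mean that only changes relative to the bulk of genes can be seen, and precision is set by how many arrays there are. The table holds 30601 features. Of these, 23485 carry 1 symbol and were averaged to 15271 genes, 179 carry several symbols and 6937 none, and those were not named.

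One limma fit (version 3.58.1 in R 4.3.3) of all 42 arrays, with 1 coefficient per group, gave the contrast 5 days minus 72 h for the 14922 genes with at least 3 values in each group. Its test is two-sided, and a gene was called at a Benjamini-Hochberg adjusted p below 0.05 over all genes tested. Missing values were left out, with no imputation. Lists are described by counts and medians beside all genes. Tested on simulated data with 14905 genes for this comparison, the fit recovered 22.4% of log2 changes of 0.5, 91.0% of 1 and 100.0% of 2, with 7 false calls among 149. The simulated noise was normal, independent between genes and arrays, and for each gene equally wide on every array. It held no array that stands apart and no number run, so these rates need not hold for the real arrays.

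The genes named are the 15 largest positive and the 15 largest negative differences among called genes with a value on all 8 arrays, no overlap between groups and agreeing features (clone and predicted names passed over), up to 4 called members of each list, and a panel reported regardless of outcome. The Klra, lectin-like receptor, Ifi, histone, immunoglobulin kappa and stefin families, Tfr2, Il18r1 and other single genes outside that rule were chosen after their values were seen. The comparison, the lists and the rule were chosen with earlier results of these data known. Alternatives tried were other filters, centring, scaling, feature averaging, fits, blocks, thresholds and arrays left out. Promoter sequences are from RefSeq (GRCm38.p6), where 11866 of the genes tested had a promoter.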

Additional observations from a re-analysis of the deposited data

Results flagged for a closer look

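In 284 groups of 4 arrays (named genes and list means at each time), 21 held 1 array far from the other 3 by Dixon's criterion, which chance gives in about 1 in 20 groups. Of these, 7 single-gene values were on 72 h array 3, the array that stood apart over all genes: H2bc15 at -0.507 (others 1.01 to 1.21), H1f4 at 0.514 (2.37 to 2.48), H2bc9 at 0.581 (0.94 to 1.01), Mzb1 at 1.339 (0.32 to 0.40), Lpl at 1.2 (0.58 to 0.62), Il23a at 0.657 (-0.01 to 0.10) and Junb at -2.567 (-1.69 to -1.59). All 7 lie on the side that enlarges the gene's difference to 5 days. All 7 are called genes, named for the size of that difference, so the side is partly set by the choice of genes.

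The 72 h array 4 was low in the mean of the mature B cell list at 2.574 (others 3.15 to 3.17), of the macrophage list at 2.589 (3.20 to 3.29), of the endothelial list at 1.435 (1.99 to 2.06) and of the chemokine list at 0.963 (1.27 to 1.32), and in Spic at 4.899 (5.71 to 5.83). The 72 h array 2 was high in Olfr228 at 3.547 (others -0.24 to 0.26).

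Among the 5 days arrays, array 4 was low in Klrc1 at -2.069 (others 3.02 to 3.80), in Itgae at 1.903 (2.20 to 2.22), in Jchain at -0.339 (0.10 to 0.11) and in the mean of the interferon-stimulated list at 0.987 (1.20 to 1.22). Array 3 was high in the mean of the pancreatic acinar list at 5.469 (others 0.33 to 0.95) and of the MHC class I list at 1.69 (1.45 to 1.49). Array 2 was low in Sparc at -2.359 (others -1.99 to -1.94), and array 1 was low in the mean of the DNA replication list at 0.842 (others 0.93 to 0.94).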

How the results depend on the processing

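Of the 97 called genes followed through the alternatives, 0 changed sign under any of them; among genes and list medians that were not called, small differences did, such as Ifng and Mki67 with arrays scaled to equal spread. The 512 calls (186 higher, 326 lower) became 1944 (724 and 1220) with array weights, 482 of them shared, and 758 with arrays scaled to equal median absolute deviation, of which 556 were lower. They became 28 (10 and 18) in the fit of the 8 arrays alone, and 79 (17 and 62) without the 3 arrays that lacked over 1000 features. A threshold of 0.01 left 104 (25 and 79), and an added log2 difference above 1 left 126 (40 and 86). Leaving out 1 array gave 228 to 532 calls, 56 to 198 higher and 167 to 387 lower, of which 201 to 391 were shared with the full fit. Without array 3 of both groups, a setting chosen after seeing the data, 243 were called (89 and 154). The number run as a random block left 371 calls, all among the 512. The counts stayed within 1.5 times under the other filters, centring, quantile normalization, feature median, single features, trended spread and the fit without the control ODN and 14 days groups.

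Whether the replicate numbers pair the arrays is not settled, and the labels do not say that a number marks a shared animal or day. Same-numbered arrays had correlations of deviations of 0.251, 0.038, 0.421 and -0.058 over 13939 genes. Between differently numbered arrays they ran from -0.404 to 0.224. With the number as a replicate block in the 8 arrays, 65 genes were called (22 higher, 43 lower), 58 of them among the 512. The fit of the same 8 arrays without the block called 28. The causes of these changes, the smaller number of arrays in some fits included, were not tested.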

Other observations

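Features with no single gene symbol were tested apart from the named genes. Of 6715, 54 were higher and 90 lower at 5 days (2.14%), against 3.43% of named genes.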
